A study of Mus musculus with 6 samples.

Results

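The nuclear-encoded subunits of respiratory complexes II, III and IV, with cytochrome c, were followed in the tibia of mice heterozygous at Col1a1, which encodes a chain of type I collagen, and of wild-type mice. The set was chosen by gene symbol and holds 30 genes of the 56748 in the count tables, all of which passed the filter on low counts. The samples came from female mice 12 weeks old, 3 labelled Col1a1+/- and 3 labelled wild type. The labels name no treatment, no batch and no Cre or transgene, and they do not say how the Col1a1 allele was made. They also do not tie the samples to separate animals, so the spread behind each p-value may be technical. The bones had been emptied of marrow before RNA was taken, and poly-A RNA was sequenced. The libraries held 26830644 to 32379684 counted reads.

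Electrons from succinate enter the chain at complex II (succinate dehydrogenase), pass through complex III (cytochrome bc1) to the small carrier cytochrome c, and reach oxygen at complex IV (cytochrome c oxidase). The catalytic core of complex IV and the cytochrome b of complex III are made from mitochondrial DNA, and all other subunits are encoded in the nucleus. Several complex IV subunits exist as a pair of isoforms: Cox6a1, Cox7a2 and Cox8a are made in most tissues, and Cox6a2, Cox7a1 and Cox8b take their place in heart and skeletal muscle, with Cox7a1 and Cox8b also known from brown fat.

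The tissue held bone, cartilage and muscle RNA. All 12 osteoblast markers examined were tested. Their summed share of reads ranged from 8.13% to 9.11% in Col1a1+/- libraries and from 3.75% to 5.38% in those of wild type. By the edgeR test described below, 6 of the 12 were called higher in Col1a1+/-, beside 1.43% of all genes tested. Col1a1 itself stood at 61150, 52880 and 59600 CPM (counts scaled to library size) in Col1a1+/- libraries and at 36810, 61350 and 54800 in the wild-type ones, so its level did not separate the genotypes. Most of the summed osteoblast share was Col1a2, which encodes the other chain of type I collagen. It stood at 73120, 68190 and 72430 CPM in Col1a1+/- and 27900, 49100 and 43110 CPM in wild type. Col1a2 was not among the 6 called (edgeR adjusted p = 0.159). Skeletal muscle markers took 2.25%, 4.16% and 2.04% of reads in Col1a1+/- replicates 1, 2 and 3 and 6.52%, 6.57% and 8.24% in the wild-type replicates. All 25 of these markers had a lower estimate in Col1a1+/-, and none was at 0. By the same test 10 of them were called lower, beside 2.91% of all genes tested. In bulk RNA, fewer muscle cells and less RNA per muscle cell cannot be told apart. Chondrocyte markers took 0.319% to 0.467% of reads in Col1a1+/- and 0.127% to 0.202% in wild type, with 5 of 8 called higher. Osteoclast and osteocyte markers also took a larger share in every Col1a1+/- library than in any wild-type library, with 0 called. Taken singly, 6 of 10 osteoclast and 2 of 12 osteocyte genes tested separated in that direction, beside 14.0% of all genes. The osteocyte marker with most reads was Gja1, at 909, 901 and 927 CPM in Col1a1+/- and 590, 744 and 614 CPM in wild type. The next, Dmp1, overlapped (435, 450 and 746 against 224, 589 and 328 CPM). Erythroid and adipocyte shares overlapped. Wild-type replicate 1 stood apart in neutrophil markers, at 0.622% of reads against 0.104% to 0.173% in the other libraries.

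The promoters of the isoform pairs are shown because the muscle and general forms of a pair gave different values below. They come from RefSeq on build GRCm38.p6, 250 bases before to 50 after the start, in the direction of the gene. The table held 21 of the 30 genes, and Cox6a2 was among those without an entry. The muscle forms lie at chr7:140900397-140900696 (Cox8b, minus strand) and chr7:30183921-30184220 (Cox7a1, plus strand). The general forms, all on the minus strand, lie at chr19:7217567-7217866 (Cox8a), chr9:79759804-79760103 (Cox7a2) and chr5:115348909-115349208 (Cox6a1). Capitals mark matches, on either strand, to ACTTCCGG, bound by ETS factors such as GABP, to the GC box GGGCGG, to the E-box with the letters CAGCTG, to the letters TATAAA of the TATA box, and to the consensus motifs of NRF1 and MEF2.
Cox8b: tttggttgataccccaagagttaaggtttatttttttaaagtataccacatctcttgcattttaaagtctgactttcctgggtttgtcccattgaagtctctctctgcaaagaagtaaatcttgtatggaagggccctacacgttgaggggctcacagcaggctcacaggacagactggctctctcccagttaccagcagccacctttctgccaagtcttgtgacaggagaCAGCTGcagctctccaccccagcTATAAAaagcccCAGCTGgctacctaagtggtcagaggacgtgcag
Cox8a: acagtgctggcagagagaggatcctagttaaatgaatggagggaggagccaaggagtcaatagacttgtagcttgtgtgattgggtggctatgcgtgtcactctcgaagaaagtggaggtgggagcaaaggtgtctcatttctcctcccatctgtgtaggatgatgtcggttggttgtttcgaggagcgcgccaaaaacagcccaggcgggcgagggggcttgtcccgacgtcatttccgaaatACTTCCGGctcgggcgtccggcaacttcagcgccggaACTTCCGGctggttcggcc
Cox7a1: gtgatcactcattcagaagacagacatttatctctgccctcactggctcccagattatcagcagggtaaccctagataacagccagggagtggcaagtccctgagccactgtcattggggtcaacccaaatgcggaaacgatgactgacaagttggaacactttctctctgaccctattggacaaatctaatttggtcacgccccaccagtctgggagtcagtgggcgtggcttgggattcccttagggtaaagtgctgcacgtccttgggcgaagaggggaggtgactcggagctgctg
Cox7a2: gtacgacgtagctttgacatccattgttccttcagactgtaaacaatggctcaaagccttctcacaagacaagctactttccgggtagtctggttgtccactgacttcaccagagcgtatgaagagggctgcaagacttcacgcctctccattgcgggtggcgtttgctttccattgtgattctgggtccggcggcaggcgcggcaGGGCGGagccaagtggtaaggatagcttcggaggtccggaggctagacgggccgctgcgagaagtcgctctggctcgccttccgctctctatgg
Cox6a1: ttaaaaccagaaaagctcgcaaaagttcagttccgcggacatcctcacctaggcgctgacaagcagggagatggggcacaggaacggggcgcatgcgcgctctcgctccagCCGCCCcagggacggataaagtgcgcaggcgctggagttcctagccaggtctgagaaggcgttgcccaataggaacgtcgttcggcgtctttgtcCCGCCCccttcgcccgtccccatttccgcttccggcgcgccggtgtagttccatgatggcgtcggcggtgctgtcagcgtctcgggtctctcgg

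Cox8b was the only one of the 21 promoters with the E-box letters, starting at -19 and at 17 bases from the start site, and the only one with TATAAA, which starts at 5, after the annotated start site, whereas a TATA box is known to lie before it. These motifs occurred in 16.3% and 13.62% of the 32851 promoters of the table. The general isoform Cox8a held ACTTCCGG at -6 and at 32, a motif that Uqcr11 and Uqcrh also held and that was found in 3.89% of all promoters. GC boxes were found in 8 of the 21, Cox6a1 and Cox7a2 among them, and in 35.66% of all promoters. The NRF1 consensus matched Sdhd and Uqcrc1 and 1.27% of all promoters, and the MEF2 consensus matched none of the 21 and 3.19% of all. These matches depended on the form searched: a shorter form of the NRF1 motif, searched first, matched Cox6a1 and Uqcrc1 (0.97% of all), and a looser form of the MEF2 motif matched Cox5b (3.69% of all). The Cox7a1 promoter held none of these motifs in the window.

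The genotypes were compared with edgeR's quasi-likelihood test over all 18514 genes that passed the filter, and a gene was called where its p, adjusted by Benjamini-Hochberg, was under 0.05. Log2 fold changes give Col1a1+/- relative to wild type. None of the 30 members passed in either direction, where 2.91% of all tested genes were called lower and 1.43% higher (4.34% in either direction). At an unadjusted p under 0.05 the count was 22 lower and 1 higher, where 13.2% of all genes were lower and 9.59% higher. By DESeq2, 15 members were called lower, beside 7.92% of all genes. By limma-voom 1 was, Uqcrc2, beside 3.59%. The estimate was below 0 for 27 of 30 members, with a median of -0.81, beside a median of -0.01 over all genes tested. The quartiles of the members were -0.93 and -0.61, and those of all genes were -0.29 and 0.22. The 3 members with an estimate above 0 were Cox6a1, Cox8a and Cox4i2. The plot of fold changes shows the spread of the estimates.

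**Figure D1:**
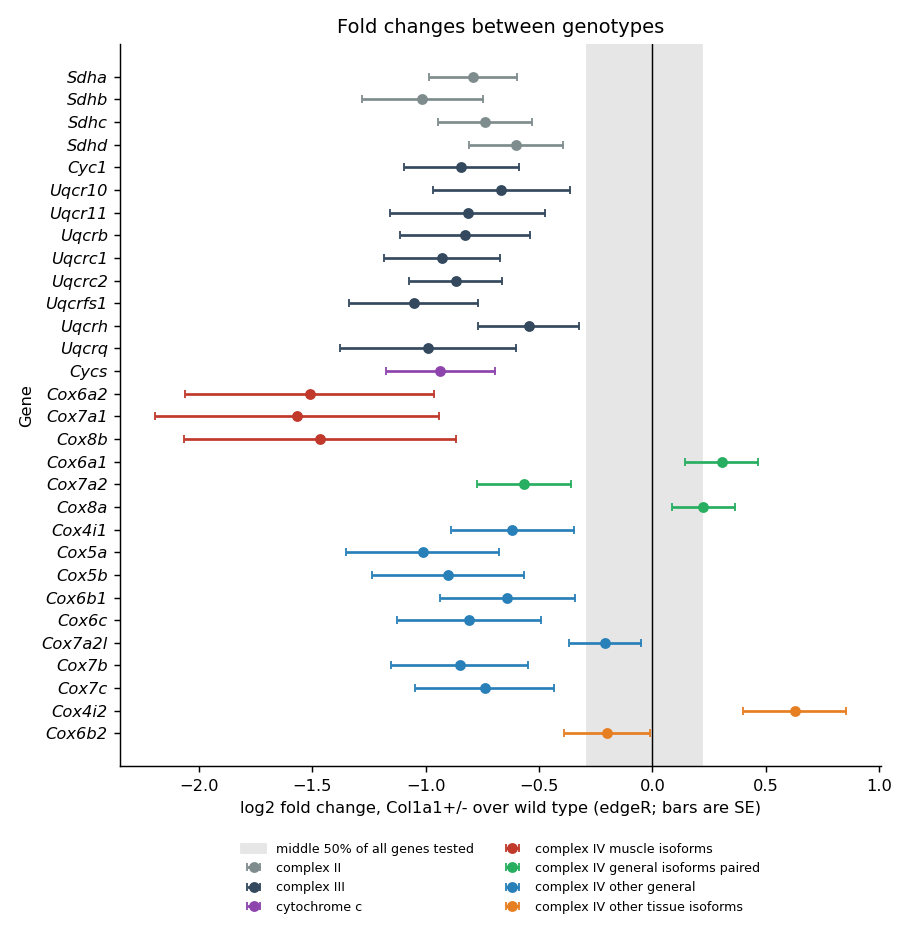
Log2 fold change of each of the 30 genes (Col1a1+/- over wild type, horizontal axis), with SE bars from edgeR, coloured by complex and isoform class; the grey band spans the middle 50% of all genes tested. The 3 muscle isoforms lie farthest to the left, between -1.57 and -1.47, and Cox6a1, Cox8a and Cox4i2 lie to the right of 0.

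Single libraries set how far the genotypes parted. Wild-type replicate 1 was the lowest of the wild-type libraries for 29 of 30 members, and Col1a1+/- replicate 3 was the lowest of its genotype for 28. Wild-type replicates 2 and 3 were above all 3 Col1a1+/- libraries for 26 members. Col1a1+/- replicate 2 was nonetheless above wild-type replicate 1 for 22. The libraries of the 2 genotypes did not overlap for 7 members that were lower in Col1a1+/- (Sdha, Sdhb, Sdhc, Uqcrc1, Uqcrc2, Uqcrfs1 and Cycs) and for 2 that were higher (Cox8a and Cox4i2). Over all genes tested such separation held for 14.5% in the lower and 14.0% in the higher direction. Without wild-type replicate 1, edgeR called 21 members lower, all of them outside the muscle isoforms, and 6.15% of all genes.

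**Figure D2:**
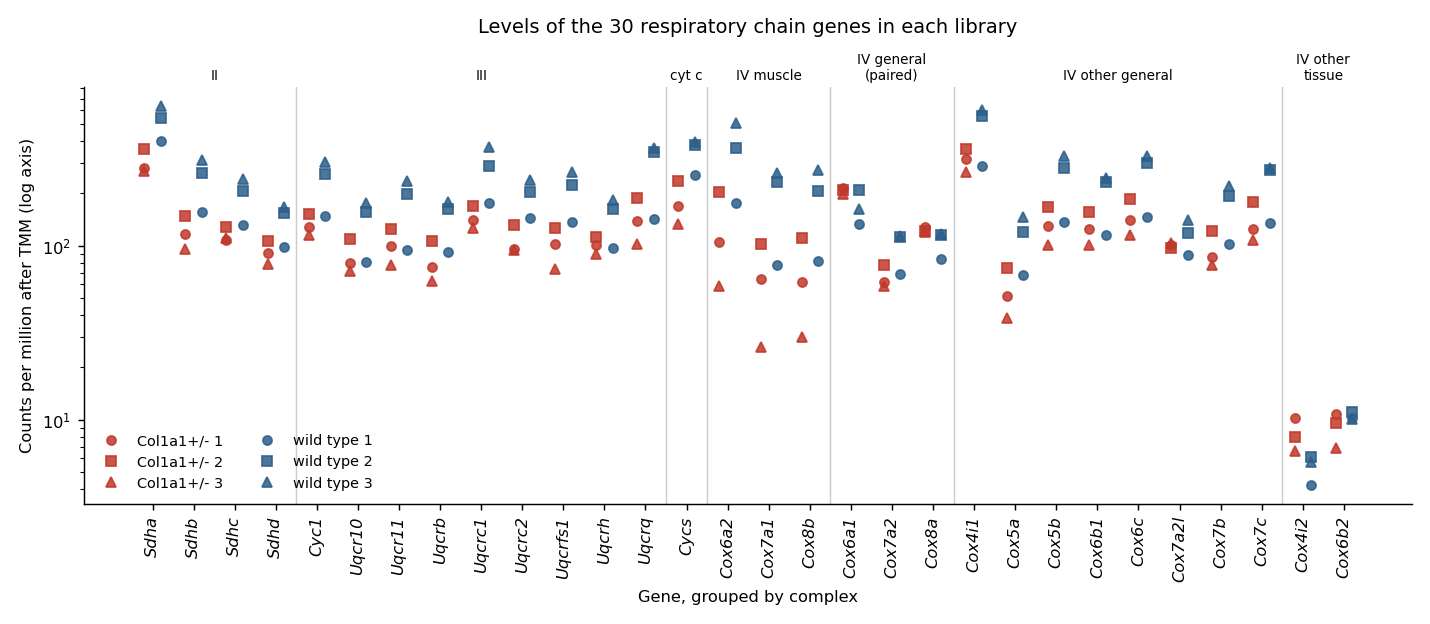
CPM after TMM scaling (vertical log axis) of each gene in each of the 6 libraries, grouped by complex; colours give the genotype and symbols the replicate. Wild-type replicate 1 (blue circles) lies below the other wild-type libraries in 29 of 30 genes.

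Exon length differed between these sets of members and moved with wild-type replicate 1. The 7 members with separated genotypes and lower values had a median exon length of 3250 bp (1363 to 4135), and the 20 other members with an estimate below 0 had a median of 1172.5 bp (360 to 3567). Across genes with at least 5 CPM on average, wild-type replicate 1 was lower than the mean of the other 2 wild-type libraries by a median log2 difference of -0.48 for exons under 1 kb (380 genes), of -0.28 for 1 to 2.5 kb and of -0.03 for longer genes. In Col1a1+/- replicate 3 the same differences were -0.24, -0.11 and 0.04. With this trend levelled in each library, an alternative chosen after the data were seen, edgeR called 2 members lower, Sdha and Uqcrc2, beside 3.35% of all genes, and the median of the members was -0.76.

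Complex II couples the citric acid cycle to the chain: Sdha carries the flavin that oxidizes succinate, Sdhb the iron-sulfur clusters, and Sdhc and Sdhd anchor the enzyme in the membrane. In complex II the smallest p was that of Sdha (ENSMUSG00000021577; GRCm39 chromosome 13, 74470373 to 74498399, minus strand). It stood at 281, 359 and 268 CPM in Col1a1+/- replicates 1 to 3 and at 400, 539 and 632 CPM in the wild-type libraries. All wild-type libraries were above all Col1a1+/- libraries, by a log2 fold change of -0.79 (SE 0.19; edgeR adjusted p = 0.0544). Sdhb had the lowest estimate of the complex, at -1.01 (edgeR adjusted p = 0.0735), Sdhc was at -0.74 and Sdhd at -0.60, and Sdhd overlapped between genotypes. None of the 4 passed by edgeR, all 4 had an unadjusted p under 0.05, and DESeq2 called all 4 lower.

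Complex III takes electrons from ubiquinol through the Rieske iron-sulfur protein (Uqcrfs1) and cytochrome c1 (Cyc1), on a scaffold of the core proteins Uqcrc1 and Uqcrc2 and the small subunits Uqcrb, Uqcrq, Uqcrh, Uqcr10 and Uqcr11. All 9 subunits had estimates below 0, from -1.05 for Uqcrfs1 to -0.55 for Uqcrh, with a median of -0.84. Uqcrc2 (ENSMUSG00000030884; GRCm39 chromosome 7, 120234399 to 120258747, plus strand) had the smallest p of all 30 members. Its levels were 95.5, 131 and 94.5 CPM in Col1a1+/- and 145, 203 and 239 CPM in the wild-type libraries. The groups did not overlap, and the log2 fold change was -0.87 (SE 0.20; edgeR adjusted p = 0.0523). Of its exon length 19.75% is shared with Pdzd9 on the opposite strand, and the counting did not use strand. Of the 2 nuclear-encoded catalytic subunits, Uqcrfs1 did not overlap between genotypes (101 ± 27 CPM in Col1a1+/- and 209 ± 66.4 CPM in the wild-type libraries, SD, n = 3). Cyc1 did (132 ± 18.3 and 236 ± 80.3 CPM), but only by Col1a1+/- replicate 2 at 151 CPM and wild-type replicate 1 at 147 CPM. Their log2 fold changes lay within error of each other, at -1.05 (SE 0.285) for Uqcrfs1 and -0.84 (SE 0.254) for Cyc1. The small subunits Uqcrb, Uqcrq, Uqcrh, Uqcr10 and Uqcr11 all overlapped. None of the 9 passed by edgeR, 8 had an unadjusted p under 0.05, and DESeq2 called 6 lower.

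Cytochrome c (Cycs), the soluble carrier between complexes III and IV and a trigger of apoptosis once released from mitochondria, stood at 169, 236 and 134 CPM in Col1a1+/- and 256, 379 and 396 CPM in the wild-type libraries. The groups did not overlap, with 1.91-fold more in wild type (log2 fold change -0.94, SE 0.24; edgeR adjusted p = 0.0652).

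In complex IV the muscle isoforms had the lowest estimates of the whole set. Cox6a2, which sits at the dimer interface of the oxidase and is the muscle form of subunit VIa (ENSMUSG00000030785; GRCm39 chromosome 7, 127804607 to 127805559, minus strand), stood at 105, 202 and 59.1 CPM in Col1a1+/- and at 176, 363 and 506 CPM in the wild-type libraries. Cox7a1, the muscle form of subunit VIIa (ENSMUSG00000074218; GRCm39 chromosome 7, 29883569 to 29885503, plus strand), stood at 64.2, 102 and 26.3 CPM against 77.0, 232 and 262 CPM. Cox8b, the muscle form of subunit VIII (ENSMUSG00000025488; GRCm39 chromosome 7, 140478858 to 140480359, minus strand), stood at 61.6, 110 and 29.9 CPM against 81.2, 206 and 271 CPM. All of them were highest in wild-type replicate 3 and lowest in Col1a1+/- replicate 3, and in each the genotypes overlapped because Col1a1+/- replicate 2 was above wild-type replicate 1.

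The log2 fold changes of the muscle isoforms were -1.51 for Cox6a2 (SE 0.55; edgeR adjusted p = 0.17), -1.57 for Cox7a1 (SE 0.63; edgeR adjusted p = 0.209) and -1.47 for Cox8b (SE 0.60; edgeR adjusted p = 0.219). Their fold differences of 2.76 to 2.96 were larger than that of any other member, and so were their SEs. Of all genes tested, 1.5% to 2.2% had a lower log2 fold change than these 3. With 1 library left out they lay between -2.08 and -1.08, with no call.

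The general partners had estimates nearer to 0 or above it. Cox6a1 stood at 216, 210 and 199 CPM in Col1a1+/- and 133, 209 and 163 CPM in the wild-type libraries, a log2 fold change of 0.31 (SE 0.16; edgeR adjusted p = 0.301). Cox8a stood at 127, 122 and 120 CPM against 83.5, 115 and 117 CPM, with every Col1a1+/- library above every wild-type library and a log2 fold change of 0.22 (SE 0.14; edgeR adjusted p = 0.383). With libraries scaled on osteocyte genes both turned to values below 0, at -0.29 and -0.40, a scaling that moved the median of all genes to -0.68, so that both stayed above that median. Cox7a2, the general form of subunit VIIa, was on the other side of 0, at 62.2, 77.9 and 58.6 CPM in Col1a1+/- against 68.4, 113 and 114 CPM (log2 fold change -0.57, SE 0.21; edgeR adjusted p = 0.15).

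Ratios of a muscle to a general isoform within 1 library are free of the scaling between libraries. Their size depends on the annotated exon lengths used, but the log2 difference between genotypes does not. Per kb of exon, Cox6a2 to Cox6a1 was 0.505, 0.997 and 0.306 in Col1a1+/- and 1.37, 1.79 and 3.21 in the wild-type libraries. The muscle form thus made up 33.6%, 49.9% and 23.5% of the pair in Col1a1+/- and 57.7%, 64.2% and 76.2% in wild type, with no overlap. Cox8b made up 45.4%, 60.9% and 30.1% of its pair with Cox8a in Col1a1+/- and 62.6%, 75.5% and 79.8% in wild type, again with no overlap. Cox7a1 made up 64.6%, 69.8% and 44.2% of its pair with Cox7a2 against 66.5%, 78.4% and 80.3%, and Col1a1+/- replicate 2 lay above wild-type replicate 1.

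The mean log2 ratio was lower in Col1a1+/- by a difference of -1.89 for Cox6a2 to Cox6a1 and -1.73 for Cox8b to Cox8a (exact two-sided permutation p = 0.1 each, the smallest that 3 samples against 3 allow; 0.15 adjusted over the 3 pairs). For Cox7a1 to Cox7a2 the difference was -1.05 (exact permutation p = 0.2, also after adjustment). The SD of the log2 ratios within a genotype was between 0.56 and 0.93, so all 3 differences were larger than the SD between libraries, but this exact permutation test cannot go below 0.1 with 3 samples against 3.

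**Figure D3:**
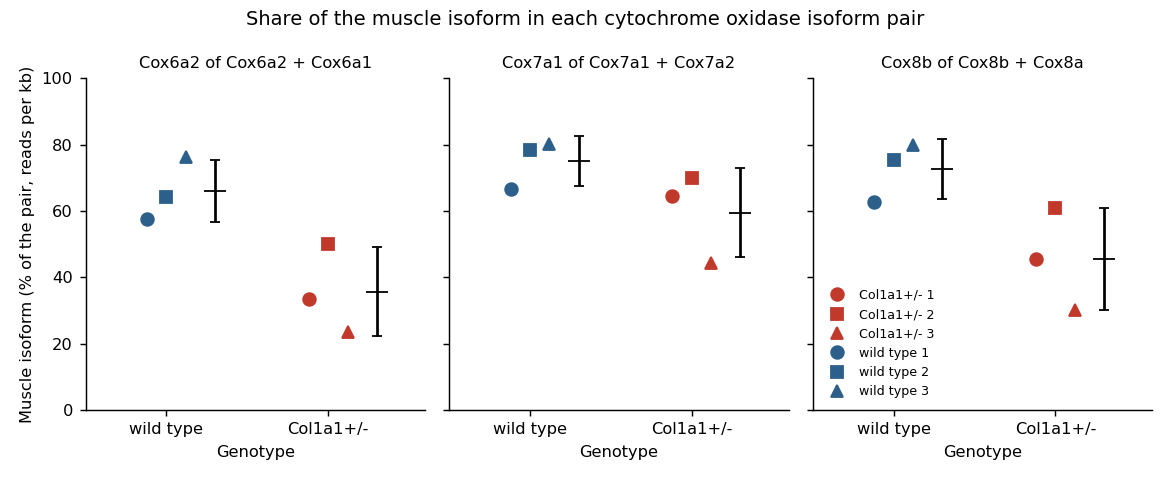
Muscle isoform as a percent of its pair (reads per kb of exon, vertical axis) in each library, by genotype, for Cox6a2 with Cox6a1, Cox7a1 with Cox7a2 and Cox8b with Cox8a; bars give the mean and SD of 3 libraries. Every Col1a1+/- library lies below every wild-type library in the first and last panel, and in the middle panel Col1a1+/- replicate 2 (69.8%) lies above wild-type replicate 1 (66.5%).

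Measured per length, the order of the mean levels was not the same in the 2 genotypes. In wild type the 3 muscle isoforms had the highest means of all 30 genes, at 516.5 ± 267 (Cox8b), 512 ± 243 (Cox6a2) and 356 ± 186 (Cox7a1) RPKM, reads scaled to exon length and library size (SD, n = 3). Cox4i1 followed at 311 ± 110.5, and these neighbours did not differ beyond their spread. The order rests on the length of all annotated exons, 360 bp for Cox8b and 4135 bp for Uqcrc1. By CPM the highest wild-type means were those of Sdha (524), Cox4i1 (482) and Cox6a2 (348), with Cox7a1 at 190 and Cox8b at 186. Per length in Col1a1+/-, the highest means were those of Cox6a1 (296 ± 11.9), Cox4i1 (202.5 ± 30.6) and Cox8a (199 ± 6.29 RPKM). Cox8b (187 ± 113) and Cox6a2 (180 ± 107.5) came after them. There too neighbours lay within their spread, apart from Cox6a1 and Cox4i1, and in Col1a1+/- replicate 2 Cox8b was above Cox8a (ratio 1.56) and Cox6a2 nearly level with Cox6a1 (0.997). Summed over both forms, subunit VIa stood at 476 ± 113.5 in Col1a1+/- and 752 ± 273 RPKM in wild type, and subunit VIII at 386 ± 114 and 687 ± 297. Subunit VIIa had the largest difference of the 3 sums, at 190 ± 81.2 and 460 ± 213 RPKM.

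The muscle isoforms were also set against the other muscle RNA of the same library. As a percent of the summed skeletal muscle markers, per kb, the 3 isoforms together were 4.81%, 4.38% and 2.80% in Col1a1+/- and 2.66%, 4.93% and 5.14% in the wild-type libraries. The means of 3.99% ± 1.06 and 4.24% ± 1.37 (SD, n = 3) overlapped, and the log2 difference of -0.06 was within the spread. It turned to 0.17 without Col1a1+/- replicate 3, to 0.07 without wild-type replicate 2 and to 0.10 without wild-type replicate 3. The low libraries were 1 of each genotype, wild-type replicate 1 and Col1a1+/- replicate 3. Both were also below the other libraries of their genotype for genes with exons under 1 kb, by median log2 differences of -0.48 and -0.24. The exons of Cox8b, Cox7a1 and Cox6a2 add up to 360, 535 and 680 bp. The part of exon length in the low values of these libraries was not tested.

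Those 2 libraries also held the largest share of Myh4, the myosin of fast glycolytic fibres, a gene looked at after its values were seen. Of the reads of Myh1, Myh2, Myh4 and Myh7, Myh4 took 82.7% in wild-type replicate 1 and 87.2% in Col1a1+/- replicate 3, against 53.3% to 71.0% in the other libraries. Myh2, the myosin of fast oxidative fibres, took 4.24% and 1.86% there, and 12.5% and 13.6% in wild-type replicates 2 and 3. In Col1a1+/- replicates 1 and 2 it took 4.65% and 6.85%. Myh7, the myosin of slow fibres, did not pair those 2 libraries: it took 0.627% in wild-type replicate 1, above the 0.42% of wild-type replicate 2, and 0.000718% in Col1a1+/- replicate 3.

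Markers of slow and oxidative fibres and markers of fast fibres both separated the genotypes. These lists are not independent of the skeletal muscle markers above. That list holds all the fast fibre markers and, of the slow ones, Myh7, Myh2, Tnni1, Tnnt1 and Mb. The 10 slow and oxidative genes together took 0.0774%, 0.13% and 0.0389% of reads in Col1a1+/- replicates 1 to 3 and 0.187%, 0.364% and 0.539% in the wild-type ones, and none was at 0. All 10 had estimates below 0, with a median of -3.78, and 2 fell by edgeR, the slow myosin light chain gene Myl2 and the slow troponin gene Tnni1. The 10 fast fibre markers took 1.35%, 2.45% and 1.25% of reads in Col1a1+/- replicates 1 to 3 and 3.87%, 3.51% and 4.325% in the wild-type ones. They had a median of -1.31, with 3 called lower. Of all genes tested, 2.91% were called lower, and the 2 lists were not tested against each other. The part of fibre type in the values of the respiratory genes was not tested.

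**Figure D4:**
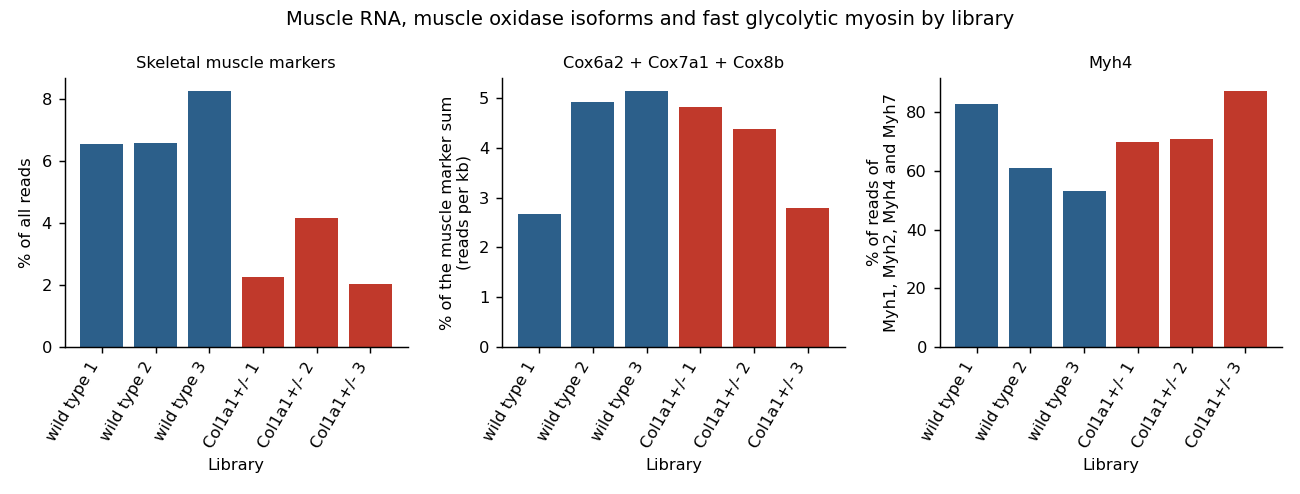
Bars for each library: skeletal muscle markers as a percent of all reads (left), Cox6a2, Cox7a1 and Cox8b summed as a percent of the muscle marker sum in reads per kb (middle), and Myh4 as a percent of the reads of 4 adult myosins (right). Wild-type replicate 1 and Col1a1+/- replicate 3 are lowest in the middle panel (2.66% and 2.80%) and highest in the right panel (82.7% and 87.2%). Both were also low for genes with short exons, and neither relation was tested.

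Markers of brown fat, the other tissue known for Cox7a1 and Cox8b, differed among themselves. Of 7 brown and beige fat markers the uncoupling protein gene Ucp1 had no read in any library, and Cidea, Elovl3, Zic1 and Otop1 averaged under 1 CPM. Dio2, which activates thyroid hormone and is not restricted to fat, stood at 13.6, 22.4 and 16.0 CPM in Col1a1+/- and 27.5, 27.1 and 10.6 CPM in the wild-type libraries, with overlap. The last of the 7 is Ppargc1a, described below with the regulators. The list took 0.00206% to 0.00284% of reads in Col1a1+/- and 0.00241% to 0.00426% in wild type.

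With the mean log2 level of the muscle markers as a covariate, edgeR called 0 members and 0 genes in all, with 1 member at an unadjusted p under 0.05. The estimate turned above 0 for 24 of the 27 members that had been below it, and the median of the members was 0.35 in place of -0.81. Sdha, Sdhc and Uqcrc2 stayed just below 0, at -0.02, -0.07 and -0.02. The muscle isoforms turned to 0.84 (Cox6a2), 0.91 (Cox7a1) and 1.04 (Cox8b). The muscle marker shares of the genotypes did not overlap, so genotype and muscle RNA cannot be told apart in this fit.

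The remaining subunits of complex IV are Cox4i1, Cox5a and Cox5b, large and regulatory parts of the nuclear shell, the small Cox6b1, Cox6c, Cox7b and Cox7c, and Cox7a2l, which joins complexes III and IV into supercomplexes. All 8 had estimates below 0, with a median of -0.77 and 0 calls by edgeR (5 at an unadjusted p under 0.05, and 4 called lower by DESeq2). Cox5a had the smallest p, at 51.6, 74.9 and 38.6 CPM in Col1a1+/- and 67.9, 119 and 146 CPM in the wild-type libraries, a log2 fold change of -1.01 (SE 0.34; edgeR adjusted p = 0.137). Only Col1a1+/- replicate 2 reached into the wild-type range. Cox4i1, the most abundant of them per length, was at -0.62 (SE 0.27), and Cox7a2l was nearest to 0, at -0.21 (SE 0.16; 101 ± 3.16 against 116 ± 26.3 CPM).

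Cox4i2, the form of subunit IV known from lung and from cells under low oxygen, went the other way at a low level. It stood at 10.3, 7.93 and 6.60 CPM in Col1a1+/- and 4.25, 6.09 and 5.75 CPM in the wild-type libraries, so that every Col1a1+/- library was above every wild-type library (log2 fold change 0.63, SE 0.23; edgeR adjusted p = 0.143). Its estimate stayed above 0 under every alternative tried, down to 0.04 with libraries scaled on osteocyte genes. Cox6b2, the testis form of subunit VIb, was at 9.12 ± 1.99 against 10.5 ± 0.584 CPM (log2 fold change -0.20; edgeR adjusted p = 0.584).

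The mitochondrially encoded partners of these subunits had values of the same sign. The cytochrome b gene mt-Cytb stood at 11280, 11000 and 6904 CPM in Col1a1+/- and 11620, 18230 and 19400 CPM in the wild-type libraries (log2 fold change -0.76, edgeR adjusted p = 0.176). The oxidase core gene mt-Co1 was at 22270, 21370 and 13500 CPM against 23170, 36060 and 36680 CPM (-0.75, edgeR adjusted p = 0.198). As among the nuclear genes, wild-type replicate 1 and Col1a1+/- replicate 3 were the lowest of their groups. Of 18 ATP synthase genes 17 had estimates below 0, with a median of -0.74 and none called by edgeR (10 at an unadjusted p under 0.05, all lower), beside -0.81 for the 30 members. The smallest p was that of Atp5a1, the alpha subunit of the F1 head, at -0.88 (edgeR adjusted p = 0.072). The 2 lists were not tested against each other.

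Factors that assemble the complexes had smaller median differences, and some passed the test. Of 6 complex III assembly genes 1 fell, Uqcc1, which helps to make cytochrome b, from 49.9, 64.7 and 69.8 CPM in the wild-type libraries to 34.1, 41.7 and 29.1 CPM (log2 fold change -0.81, SE 0.17; edgeR adjusted p = 0.0376), and the list median was -0.49. Bcs1l, which inserts the Rieske protein, was at -0.47 (edgeR adjusted p = 0.106). Of 24 complex IV assembly genes tested 3 fell and none rose, with a median of -0.38. They were Cox10, which makes the heme of the oxidase (log2 fold change -0.81, edgeR adjusted p = 0.0297), Coa5 (-0.52, edgeR adjusted p = 0.0392) and Lrpprc, which stabilizes mitochondrial messenger RNA (-0.60, edgeR adjusted p = 0.0496). The highest estimate belonged to the copper chaperone gene Cox17, at 0.37 (edgeR adjusted p = 0.303). Of 4 complex II assembly genes none passed by edgeR (1 at an unadjusted p under 0.05, Sdhaf3, at -0.63), with a median of -0.30. The share of all genes called lower was 2.91%.

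Among 14 regulators of mitochondrial gene expression 3 fell, beside 2.91% of all genes tested that were called lower. Ppargc1a, the coactivator PGC-1alpha that drives mitochondrial biogenesis in muscle, fell from 9.64, 9.20 and 14.0 CPM in the wild-type libraries to 4.08, 4.298 and 2.47 CPM (log2 fold change -1.60, SE 0.26; edgeR adjusted p = 0.0244). Perm1, a muscle regulator acting with it, fell from 65.8, 97.2 and 129 CPM to 31.6, 43.0 and 27.7 CPM (log2 fold change -1.51, SE 0.27; edgeR adjusted p = 0.0336). Esrra, the nuclear receptor ERRalpha, was the third, at -0.73 (edgeR adjusted p = 0.0378). Pprc1, a relative of PGC-1alpha, was at 0.34 (edgeR adjusted p = 0.102). None of the other regulators passed, and their estimates differed. Nrf1 was at 0.11, Gabpa at -0.05, Gabpb1 at 0.02 and Yy1 at 0.08. Ppargc1b was at -0.21, Tfb1m at -0.215 and Tfb2m at -0.40. Esrrb had the lowest estimate of the list, at -1.82 (edgeR adjusted p = 0.212), and Esrrg was at -1.47 (edgeR adjusted p = 0.167). Tfam, which packages and transcribes mitochondrial DNA, was at -0.31 (edgeR adjusted p = 0.215).

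Of 8 muscle-enriched genes, most of them of energy supply, 2 fell, beside 2.91% of all genes tested that were called lower. The median of the 8 was -1.74. The 2 were Smyd1, a methyltransferase of muscle fibres (log2 fold change -1.58, edgeR adjusted p = 0.024), and Cpt1b, the muscle gate for fatty acids into mitochondria (-1.67, edgeR adjusted p = 0.0486). Cpt1b was at a low level, 0.60, 1.12 and 0.46 CPM in Col1a1+/- and 1.86, 2.57 and 2.53 CPM in the wild-type libraries. Myoglobin (Mb), the oxygen store of oxidative fibres, stood at 347, 522 and 99.9 CPM in Col1a1+/- and 518, 1702 and 1882 CPM in the wild-type libraries (edgeR adjusted p = 0.153). Wild-type replicate 1 and Col1a1+/- replicate 3 were each the lowest of their genotype. The muscle marker shares were 2.04% to 4.16% in Col1a1+/- and 6.52% to 8.24% in wild type, and Mb is itself 1 of those markers. With the muscle covariate edgeR called no gene at all, and genotype and muscle RNA cannot be told apart in that fit. The part of muscle RNA in the calls of these lists was not tested.

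**Figure D5:**
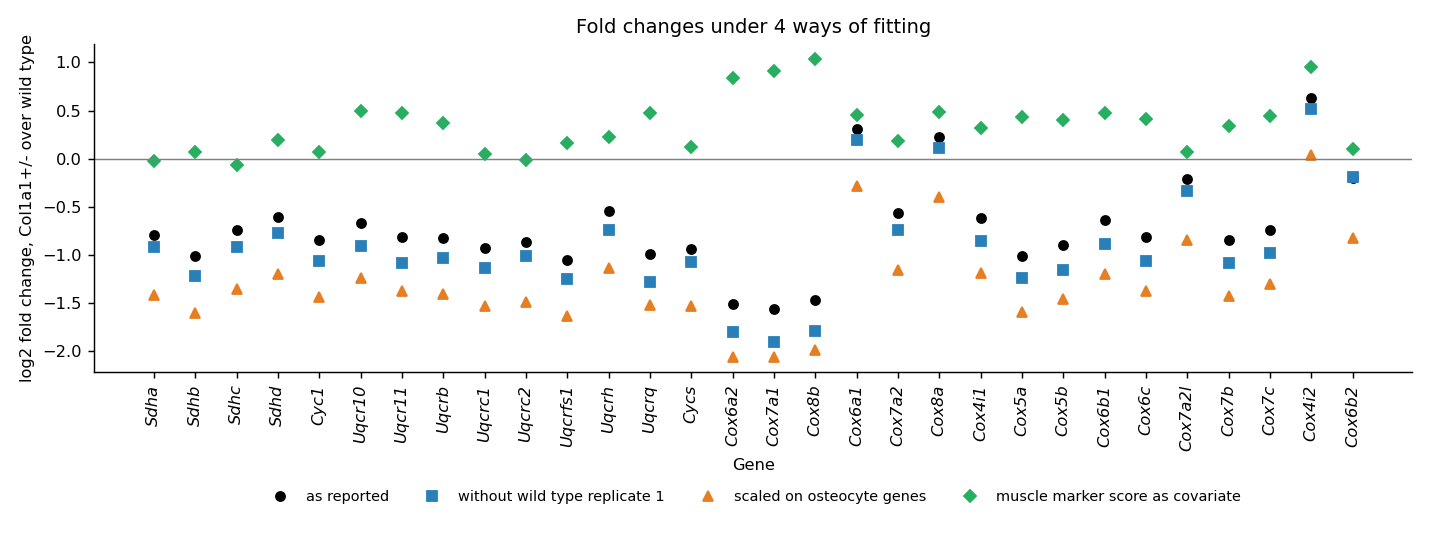
Log2 fold change of each gene (vertical axis) as reported, without wild-type replicate 1, with libraries scaled on osteocyte genes and with the muscle marker score as a covariate. Most genes move from below 0 to above 0 with the covariate (median 0.35) and lie lower with osteocyte scaling (median -1.39) than as reported (median -0.81).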

How the data were processed

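RNA-seq counts of 6 tibia libraries were used, 3 per genotype. The deposited values are raw read counts per gene, without normalization, which, per the file headers, featureCounts 2.0.3 made over the Ensembl 107 annotation of GRCm39. The recorded command sets paired input but counts each mate, uses no strand and leaves out multi-mapping reads, so genes with near-identical copies, as several small subunits have, may be undercounted. Trimmomatic 0.39, HISAT2 2.2.1 and SAMtools 1.20 came before, per the submitters' processing notes. Uqcrc1, Uqcrc2, Cox5a and Cox6a2 share over 10% of exon length with a gene on the other strand.

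Symbols were matched by identifier (91.8% of 56748). Genes were filtered with filterByExpr (18514 kept), scaled by TMM and tested with edgeR 4.0.16 in R 4.3.3, with genotype as the only term. limma 3.58.1 and DESeq2 1.42.0 were alternatives, and code was tested on simulated data. CPM and RPKM are after TMM. The members and gene lists were chosen with earlier results of these data known. Values per library are given for the isoform pairs and for the member of each complex with the smallest p in each direction, and up to 2 genes of each other list are named per direction. Esrra, Esrrb, Esrrg, Ppargc1b, Gabpa, Gabpb1, Yy1, Tfam, Tfb1m, Tfb2m and Lrpprc were named after their values were seen. So were Col1a2, Dmp1, Tnnt1, Mb and the myosins, and other members outside that rule. Counting error was small at these depths, with 744 reads or more per library for all members but Cox4i2 and Cox6b2 (137 or more).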

Additional observations from a re-analysis of the deposited data

How the results depend on the processing

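Over 15 alternatives no member was called higher by any. The number called lower, 0 as reported, was 8 with library totals, 25 with scaling on osteocyte genes, 2 without a filter (Sdha and Uqcrc2), 15 by DESeq2, 1 by limma-voom and 2 with the length trend levelled. With 1 library left out it ranged from 0 to 21: 21 without wild-type replicate 1, 3 without Col1a1+/- replicate 2 (Sdha, Uqcrc2 and Cycs) and 0 without any other. Genes called in all, 265 higher and 538 lower as reported, were 588 and 739 with library totals, 10 and 3101 with osteocyte scaling, 577 and 895 without a filter, 782 and 1466 by DESeq2, 293 and 664 by limma-voom, and 367 and 620 with the length trend levelled. They were 594 and 1172 without wild-type replicate 1, 168 and 762 without Col1a1+/- replicate 2, 32 and 12 with Col1a1+/- replicate 3 left out, 1 and 7 with wild-type replicate 2 left out, and 0 in 3 cases: the muscle covariate, leaving out Col1a1+/- replicate 1, and leaving out wild-type replicate 3. Left-out libraries gave log2 ratio differences of -2.34 to -1.49 for Cox6a2 to Cox6a1, -1.37 to -0.59 for Cox7a1 to Cox7a2, -2.19 to -1.26 for Cox8b to Cox8a, and -0.37 to 0.17 for muscle isoforms to muscle markers.

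Osteocyte scaling turned Cox6a1 to -0.29 and Cox8a to -0.40. The muscle covariate turned the sign of 24 members, and the cause was not tested. The values were 0.069 for Sdhb and 0.19 for Sdhd. In complex III they were 0.052 for Uqcrc1, 0.16 for Uqcrfs1, 0.37 for Uqcrb, 0.47 for Uqcrq, 0.23 for Uqcrh, 0.49 for Uqcr10, 0.48 for Uqcr11 and 0.073 for Cyc1, and Cycs was at 0.12. In complex IV they were 0.84 for Cox6a2, 0.91 for Cox7a1, 1.04 for Cox8b, 0.19 for Cox7a2, 0.32 for Cox4i1, 0.44 for Cox5a, 0.41 for Cox5b, 0.47 for Cox6b1, 0.41 for Cox6c, 0.34 for Cox7b, 0.44 for Cox7c, 0.072 for Cox7a2l and 0.10 for Cox6b2. In this fit the smallest adjusted p of a member was 0.794.

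The labels tie samples of the 2 genotypes by replicate number alone. Deviations of samples with the same number from their genotype means correlated at 0.11, 0.04 and -0.12. These values cannot show whether such samples shared anything else. With a replicate block 0 members were called (20 lower and 1 higher at an unadjusted p under 0.05) and 126 genes in all in place of 803. The block cannot change the 3 isoform ratio differences, since each replicate number holds 1 library of each genotype. It only sets the smallest possible exact p to 0.25.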
